A study of Mus musculus with 16 samples.

Results

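Erythroid genes, those that red cell precursors use to make haem, haemoglobin and the red cell membrane, were followed in bone and brain of Ali35 mice. A set of 8 gene symbols was chosen: Klf1, Alas2, Hba-a1, Hbb-b1, Hbb-b2, Slc4a1, Ank1 and Sptb. All probes annotated to these symbols were taken, which gave 11 probes of 7 genes among 25697 probes on the arrays. No probe was annotated to Hbb-b1, and Ank1 had 5 probes, called A to E here.

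Ali35 mice carry a mutated Shc2, whose product is an adaptor of receptor tyrosine kinases, and all mice, wild-type ones included, were of the strain C3H/HeJ. The 16 one-colour bead arrays, 1 per mouse, formed 4 groups of 4 mice: wild-type and Ali35 bone at 120 days of age, and wild-type and Ali35 brain at 3 days. Tissue and age therefore changed together. Zygosity, the bone taken and any removal of marrow or blood were not given in the labels.

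Red cells form in the marrow of adult mice, where precursors under the transcription factors GATA1 and KLF1 fill with haemoglobin before they lose their nucleus. ALAS2 starts haem synthesis, alpha and beta globin chains form haemoglobin, and the anion exchanger band 3 (Slc4a1) is tied through ankyrin (Ank1) to the spectrin skeleton, of which Sptb encodes the beta chain. Young red cells, the reticulocytes, still carry globin RNA into the blood, so tissues that were not cleared of blood also yield it. Ank1 and Sptb are not restricted to red cells and are also used in skeletal muscle and neurons. In whole tissue, fewer erythroid cells and less RNA per cell cannot be told apart.

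RefSeq held promoter sequences for 4 of the 8 symbols (build GRCm38.p6, from the strain C57BL/6J). The 250 bases before the start of a haem gene, a globin gene and a membrane skeleton gene are shown, as 1 example of each role, since the skeleton gene differs from the other two in the values that follow. Each is read 5′ to 3′ on the gene's strand, and capitals mark GATAA, the core bound by GATA factors, and CACCC, the core of KLF1 sites, on either strand (TTATC and GGGTG on the other). The windows are chrX:150547167-150547416 on the plus strand for Alas2, chr11:32283422-32283671 on the plus strand for Hba-a1 and chr12:76710548-76710797 on the minus strand for Sptb.
Alas2: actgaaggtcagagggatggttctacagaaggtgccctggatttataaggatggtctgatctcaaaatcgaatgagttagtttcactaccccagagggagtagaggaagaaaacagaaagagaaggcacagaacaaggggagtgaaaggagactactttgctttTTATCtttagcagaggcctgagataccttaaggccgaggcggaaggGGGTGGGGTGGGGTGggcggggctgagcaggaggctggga
Hba-a1: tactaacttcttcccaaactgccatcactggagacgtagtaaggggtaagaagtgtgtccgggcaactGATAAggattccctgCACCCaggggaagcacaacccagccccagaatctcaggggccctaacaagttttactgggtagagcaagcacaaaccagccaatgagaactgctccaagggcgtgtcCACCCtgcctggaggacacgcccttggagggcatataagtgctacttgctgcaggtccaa
Sptb: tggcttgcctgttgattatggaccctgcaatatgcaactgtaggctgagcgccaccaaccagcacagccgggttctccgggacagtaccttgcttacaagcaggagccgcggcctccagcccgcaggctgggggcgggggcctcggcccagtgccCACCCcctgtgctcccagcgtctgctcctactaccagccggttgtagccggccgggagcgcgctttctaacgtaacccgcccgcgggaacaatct
The Alas2 window held 1 GATAA and 3 CACCC, the Hba-a1 window 1 and 2, and the Sptb window 0 and 1, with no overlap between matches. The fourth window, of Klf1, held 1 of each. Of 32851 promoter windows of this length, 22.6% held GATAA, 52% held CACCC and 10.1% held both, so such matches are common and are given as a description only.

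Intensities are linear, normalized and background-subtracted. Changes between genotypes were taken within a probe, while brightness ranks and list sums run across probes and are descriptions only. Values below 16 were set to 16, and a probe was tested where 4 or more of a tissue's 8 arrays read 16 or above. This kept 9 member probes in bone and 7 in brain. Probes C and D of Ank1 were below 16 on every array (from -6.74 to 6.65), and probe A of Ank1 and the Klf1 probe were below it on every brain array. A change is the log2 difference of Ali35 minus wild type with its standard error (SE) from limma, and it was called at a Benjamini-Hochberg adjusted p under 0.05 over all probes tested in the tissue.

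The arrays of each group correlated with r from 0.989 to 0.996 over all probes, and 47.3% of probes reached 16 on each bone array and 42.3% on each brain array. The bone samples held marrow, bone and muscle transcripts: 9 of 10 osteoblast genes, 12 of 12 neutrophil genes and 13 of 13 skeletal muscle genes were tested there. In brain 7 of 10 neuron genes were tested, while Tubb3, Nefl and Snap25 were below 16 on all arrays. Ali35 bone replicate 1 differed from the other bone arrays in sex-linked transcripts, with Xist at 221 and 167 on its 2 probes and Eif2s3y at -2.50, against 410 to 686 for Eif2s3y elsewhere in bone. Left out, it made no member call in bone fall away and added 1, that of Slc4a1.

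On every bone array the probes of Hba-a1, Slc4a1, Alas2, Hbb-b2 and Klf1 lay above the 96th percentile of all probes. Sptb was dimmer, from percentile 76.5 to 89.3, and the tested Ank1 probes ran from 77.9 to 97.5. The Hba-a1 probe had the highest intensity of all probes on 7 of the 8 bone arrays, at 32399 ± 1566 in wild type (SD, n = 4). It may also read Hba-a2, a near copy of the gene, which was not tested, as probe sequences were not at hand. The promoter windows of the pair share a run of 297 of 300 bases, which does not show what the probe reads. Scanner saturation could not be read from the deposited values. The geometric mean of the wild-type arrays in bone was 379 times that in brain for Slc4a1, 275 times for Alas2, 20.4 times for Hbb-b2, 9.49 and 8.25 times for Ank1 probes B and E, 3.85 times for Hba-a1 and 0.963 times for Sptb. The tissues were normalized separately, so these ratios describe the deposited levels and were not tested. The Sptb levels in newborn brain and adult bone were thus close, whereas Slc4a1 and Alas2 were dim in brain.

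In bone, the comparison of genotypes showed higher Ank1 and Sptb in Ali35, while the regulator, haem and globin genes did not pass the test. All 3 tested Ank1 probes rose, by 1.76-fold to 2.42-fold, and Sptb rose 1.96-fold. Thus 4 of 9 probes, from 2 of 7 genes, were called higher and 0 lower, where 24.6% of all probes tested in bone were called, 12.7% higher and 11.9% lower. By gene, each with its brightest probe, the median change was 0.08 over the 7 genes and -0.03 over all 8700 genes. By probe it was 0.34 over the 9, of which 3 are Ank1, and -0.04 over all 12223.

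Klf1 encodes the zinc finger factor that switches on many late erythroid genes. Its intensity in wild-type bone was 2432, 2623, 2672 and 1970 in replicates 1 to 4. In Ali35 bone it was 2267, 2545, 2513 and 1940. The groups overlapped throughout, and replicate 4 was the lowest array in both. The change was -0.06 ± 0.14 SE (adjusted p = 0.759, limma), with a 95% interval of the fold from 0.776 to 1.18.

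Alas2, the erythroid form of the first enzyme of haem synthesis, ranged from 14833 to 16902 in wild-type bone and from 13054 to 18069 in Ali35 bone. The Ali35 arrays spanned the whole wild-type range, and the change was -0.00 ± 0.12 (adjusted p = 0.985, fold interval 0.83 to 1.20). The alpha globin gene Hba-a1 ranged from 30210 to 33898 in wild type and from 32425 to 38608 in Ali35, with a change of 0.08 ± 0.10 (adjusted p = 0.59, fold interval 0.905 to 1.23). Only Ali35 replicate 4 lay above the wild-type range. The beta globin gene Hbb-b2 ranged from 2036 to 2635 in wild type and from 2339 to 2707 in Ali35, with a change of 0.06 ± 0.11 (adjusted p = 0.705, fold interval 0.879 to 1.24). For Klf1 and these 3 genes the intervals reach no further than 0.776-fold and 1.24-fold. For Hba-a1, whose probe may be saturated, the interval is not a bound on the change of the transcript.

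Slc4a1, which encodes band 3, read 19342, 24462, 23974 and 19824 in wild-type bone. It read 23197, 27856, 28172 and 31429 in Ali35 bone. Ali35 replicates 2 to 4 exceeded every wild-type array, and replicate 1 lay inside the wild-type range. The change was 0.34 ± 0.13 (fold interval 1.03 to 1.55), and its adjusted p of 0.0853 missed the threshold. Without Ali35 replicate 1, the array with Xist signal, the adjusted p was 0.0454. No other array gave a call when left out, and the adjusted p ran up to 0.204.

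Ank1 encodes ankyrin 1, the adaptor between band 3 and spectrin. Probe E, the brightest, read 763, 1104, 1342 and 876 in wild-type bone and 2384, 2416, 2698 and 2162 in Ali35 bone. Every Ali35 array lay above every wild-type array. The mean went from 1021 ± 256 to 2415 ± 220 (SD, n = 4), a change of 1.27 ± 0.17 SE or 2.41-fold (adjusted p = 0.00168).

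Ank1 probe B read 700, 854, 1076 and 670 in wild-type bone and 1913, 2120, 2085 and 1742 in Ali35 bone. Probe A was dimmer, at 213, 211, 236 and 214 in wild type and 446, 353, 374 and 371 in Ali35. Neither probe overlapped between groups, and wild-type replicate 3 was the brightest wild-type array on all 3 probes. The changes were 1.27 ± 0.16 (2.42-fold, adjusted p = 0.00113) for probe B and 0.82 ± 0.11 (1.76-fold, adjusted p = 0.00141) for probe A. Without Ali35 replicate 1 the changes were 1.28, 1.29 and 0.75 for probes E, B and A, each still called. The 3 probes share a gene and the same RNA and are not independent measurements.

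Sptb encodes beta spectrin of the red cell skeleton. It read 247, 213, 247 and 185 in wild-type bone and 657, 289, 373 and 503 in Ali35 bone. The groups did not overlap, as for the 3 Ank1 probes and for 13.5% of all bone probes with Ali35 higher (15.2% with Ali35 lower). The Ali35 arrays were more spread, with replicate 1 the highest. The mean went from 223 ± 29.9 to 455 ± 160, a change of 0.97 ± 0.23 or 1.96-fold (adjusted p = 0.0164). Without Ali35 replicate 1 the change was 0.77 (adjusted p = 0.0257), and without wild-type replicate 4 the adjusted p was 0.051.

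**Figure D1:**
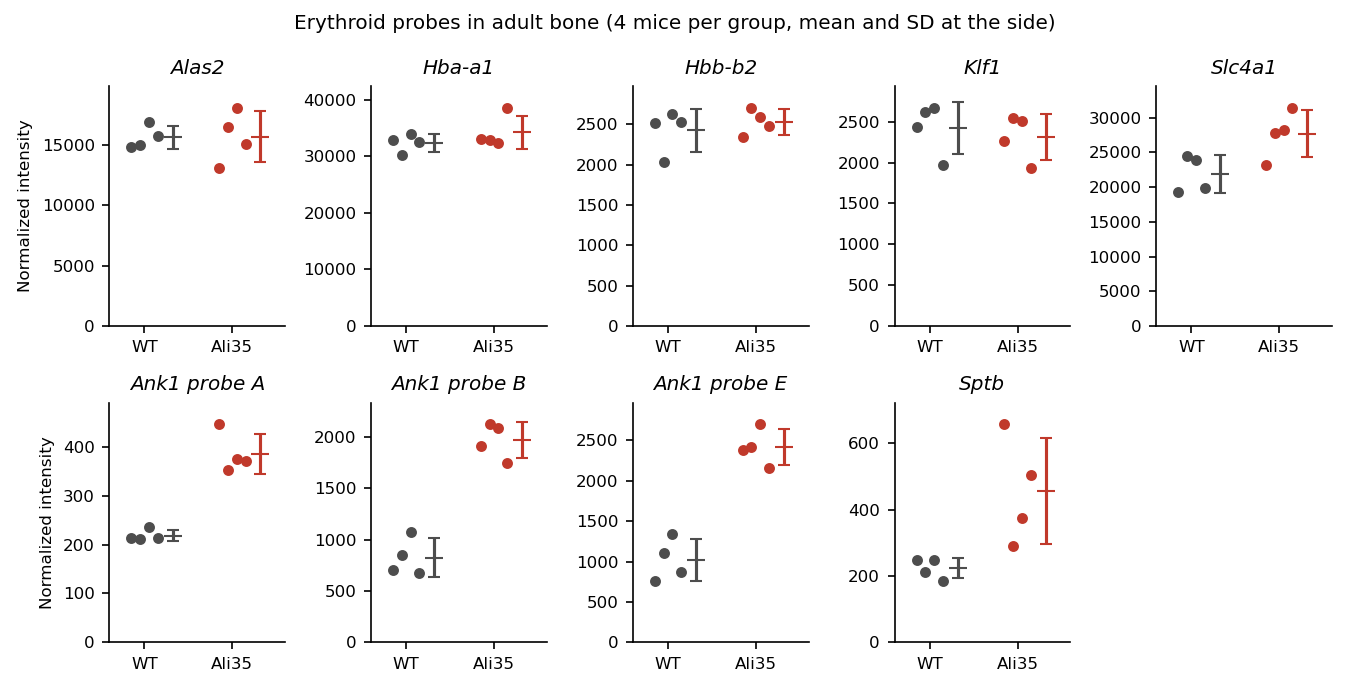
Normalized intensity (linear axis from 0) of the 9 tested erythroid probes on the 8 arrays of adult bone. Each point is a mouse (n = 4 per group), and the bars beside the points give the mean and SD. The Ali35 points lie above all wild-type points for the 3 Ank1 probes and Sptb, and overlap for the others.

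Skeletal muscle also uses Ank1 and Sptb, and the bone samples held its transcripts. Of 13 tested muscle genes, 4 were higher in Ali35 bone, 0 lower and 9 not called, where 13.5% of all genes were higher and 10.7% lower. Among the 4 were the calcium release channel gene Ryr1 (1.32 ± 0.20) and the myosin gene Myh4 (1.05 ± 0.21). These counts use the brightest probe of each gene. A further probe of Mb was called lower (-0.71 ± 0.18, adjusted p = 0.0202, limma), and further probes of Ryr1 and Actn3 were called higher. The summed intensity of the muscle list ran from 169337 to 188038 in wild-type bone and from 159948 to 234558 in Ali35 bone, so the groups overlapped. The part of muscle RNA in the Ank1 and Sptb results was not tested.

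Other genes of the red cell pathway were counted from 6 lists, each gene by its brightest probe. Over the lists 51 genes were tested in bone, 10 were higher and 0 lower (19.6% higher), where 13.5% of all 8700 genes were higher and 10.7% lower. Their median change was -0.03, and that of all genes was -0.03.

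The transcription list had the most calls, 4 of 11 genes higher and a median of 0.23. Zfpm1, which encodes FOG1, the partner of GATA1, rose from 2681 ± 1054 to 7171 ± 709 (2.82-fold, adjusted p = 0.00358). The repressor genes Gfi1b (0.79 ± 0.13) and Bcl11a (0.99 ± 0.20), the latter a silencer of fetal globin, rose as well. Gata1 rose by 0.51 ± 0.17 on 1 probe (adjusted p = 0.0488), while a second probe had -0.12, and its call was lost without 6 of the 8 arrays in turn (adjusted p from 0.0906 to 0.112), all but wild-type replicate 3 and Ali35 replicate 1.

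Several of these factors also serve platelet precursors and B cells, most of whose markers were not called. Of 7 megakaryocyte and platelet genes, Vwf (1.11 ± 0.11) and Itga2b (0.41 ± 0.13) were higher and 0 lower, against 13.5% higher and 10.7% lower over all genes, and the sums overlapped (17890 to 20011 in wild type, 16549 to 18864 in Ali35). Of 7 B lymphocyte genes, Cd79b was lower (-0.55 ± 0.13) and 0 higher. The summed B lymphocyte list ran from 4259 to 4779 in wild type and from 2554 to 4006 in Ali35, without overlap. Among all single bone probes, 15.2% did not overlap with Ali35 lower and 13.5% with Ali35 higher. The part of platelet precursors and B cells in the transcription factor results was not tested.

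In the membrane and skeleton list 3 of 10 genes were higher and 0 lower, with a median of 0.16. They were the blood group genes Kel (0.54 ± 0.11) and Xk (0.49 ± 0.12), whose products form a complex, and Dmtn, the actin bundler dematin (0.42 ± 0.12, and 0.53 on a second probe). Without wild-type replicate 1 or 4 Xk had an adjusted p of 0.058 or 0.0596. Dmtn lost its call without wild-type replicates 1, 2 and 4 and Ali35 replicates 2 and 3, each left out in turn (adjusted p from 0.0662 to 0.0784).

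The haem synthesis list had 2 of 7 genes higher, 0 lower and a median of -0.08. Alas1, the form of the enzyme used outside red cells, rose by 0.54 ± 0.13 (adjusted p = 0.0163). Ppox, which oxidises protoporphyrinogen, rose by 0.42 ± 0.13 (adjusted p = 0.0413), but a second probe had 0.10, and its call was lost without each array other than Ali35 replicate 1 (adjusted p from 0.0562 to 0.11). Of 16 enzyme and maturation genes, Ube2o, a ubiquitin ligase that clears proteins from maturing red cells, was higher (0.67 ± 0.14), 0 were lower, and the median was -0.15. A second probe of Mgst3 was called lower, however (-0.48 ± 0.12, adjusted p = 0.0174, limma). The brightest Mgst3 probe, used in the count, was not (-0.27 ± 0.12, adjusted p = 0.117).

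In the iron supply list 0 of 7 genes were called in bone by limma, and 0 had an unadjusted p under 0.05. Its lowest p values belonged to the iron exporter gene Slc40a1 (-0.26 ± 0.13) and the iron importer gene Slc11a2 (0.21 ± 0.11). Among other globin genes only a probe annotated to the adult beta globin gene Hbb-bt was tested. The transcript record listed for this probe is of beta major globin. The adult beta globin genes are close copies, and whether this probe reads Hbb-b1, also or instead, was not tested. It had -0.19 ± 0.10 and did not pass (0 genes also at an unadjusted p under 0.05), and the embryonic genes Hbb-bh1, Hba-x and Hbb-y were below 16 on all bone arrays.

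**Figure D2:**
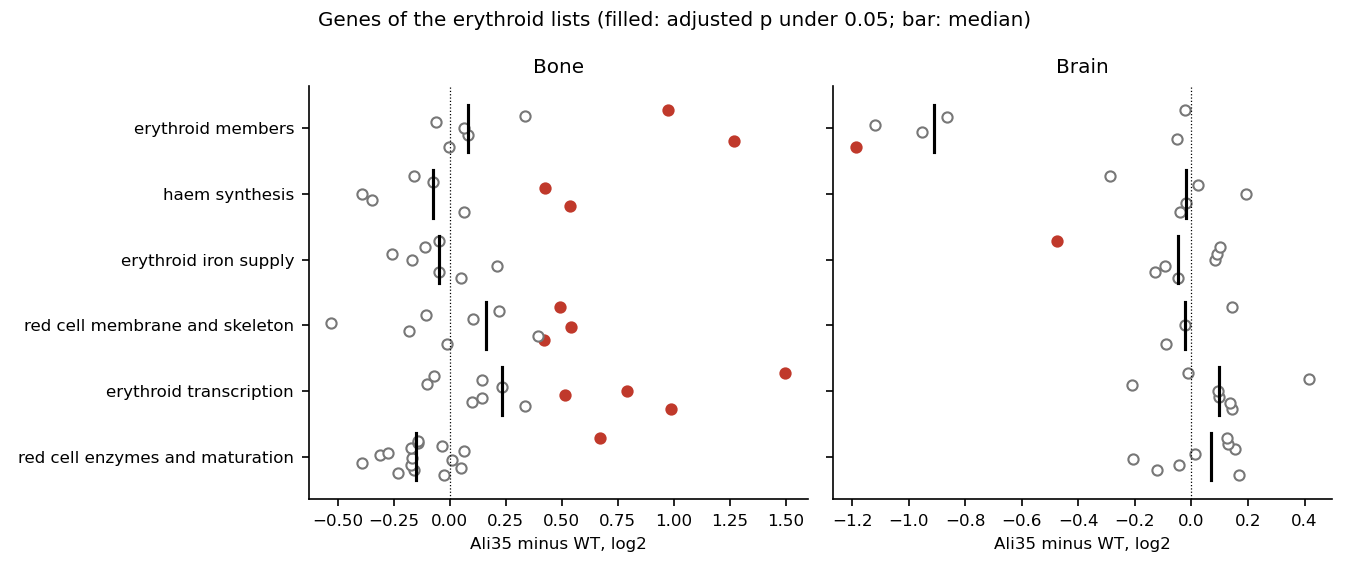
Changes in Ali35 against wild type (log2, brightest probe of each gene) for the erythroid genes and the pathway lists, other globin genes aside, in bone and brain. Points are genes, filled where called, and bars are list medians. Called genes in bone lie above 0 in these lists, and in brain the called genes are Alas2 and Trf, both below 0.

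In newborn brain the same comparison gave lower values in Ali35 for the haem, globin and band 3 genes, of which Alas2 passed the test. Of 7 tested probes 1 was called lower and 0 higher, where 3.64% of all probes tested in brain were called, 1.74% lower and 1.9% higher. All 7 changes were below 0, as for 48.4% of all probes, and 5 had an unadjusted p under 0.05 with Ali35 lower, as for 11.5% of all probes. The median change was -0.86 over the 7 probes and 0.01 over all 10922.

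Alas2 read 79.8, 85.9, 43.1 and 34.9 in wild-type brain. It read 20.5, 30.9, 26.8 and 22.6 in Ali35 brain. The groups did not overlap, as for 6.88% of all brain probes with Ali35 lower (8.78% with Ali35 higher), and wild-type replicates 1 and 2 stood well above replicates 3 and 4. The mean went from 60.9 ± 25.7 to 25.2 ± 4.62 (SD, n = 4), a change of -1.19 ± 0.28 SE, or 2.28-fold lower (adjusted p = 0.0457). Leaving out single arrays ended the call in 7 of 8 cases (adjusted p from 0.0631 to 0.126), the exception being wild-type replicate 4.

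Hba-a1 was the brightest member in brain. It read 9081, 11629, 6533 and 7270 in wild type and 3453, 6849, 4211 and 3580 in Ali35. Ali35 replicate 2 reached into the wild-type range, and the other Ali35 arrays lay below it. The mean went from 8628 ± 2269 to 4523 ± 1586, a change of -0.95 ± 0.24 (adjusted p = 0.0532). With single arrays left out the adjusted p ran from 0.0458 to 0.142. Only the run without Ali35 replicate 2 gave a call (0.0458).

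Hbb-b2 read 170, 150, 88.2 and 88.1 in wild-type brain and 43.1, 107, 55.8 and 34.6 in Ali35 brain. Again wild-type replicates 1 and 2 were high and Ali35 replicate 2 was the highest of its group. The change was -1.12 ± 0.34 (adjusted p = 0.0878). With single arrays left out the adjusted p ran from 0.0485 to 0.224, and only the run without Ali35 replicate 2 gave a call (0.0485).

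Slc4a1 read 60.6, 88.9, 48.0 and 42.2 in wild-type brain and 51.6, 34.4, 25.9 and 21.6 in Ali35 brain. The groups overlapped through Ali35 replicate 1, which here was the highest of its group. The change was -0.86 ± 0.29 (adjusted p = 0.112).

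Ank1 and Sptb, the members raised in bone, had smaller changes between genotypes in brain, and neither was called there. Ank1 probe B ranged from 75.3 to 99.8 in wild type and from 63.6 to 78.7 in Ali35 (-0.26 ± 0.11, adjusted p = 0.2). Probe E ranged from 93.9 to 145 and from 101 to 133 (-0.05 ± 0.14, adjusted p = 0.857). Sptb ranged from 205 to 256 and from 212 to 233 (-0.02 ± 0.09, adjusted p = 0.902), and its fold interval of 0.851 to 1.14 is narrow. Klf1 was below the floor on all brain arrays, from 5.87 to 7.64 in wild type and from -0.26 to 5.30 in Ali35, so it has no fold.

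**Figure D3:**
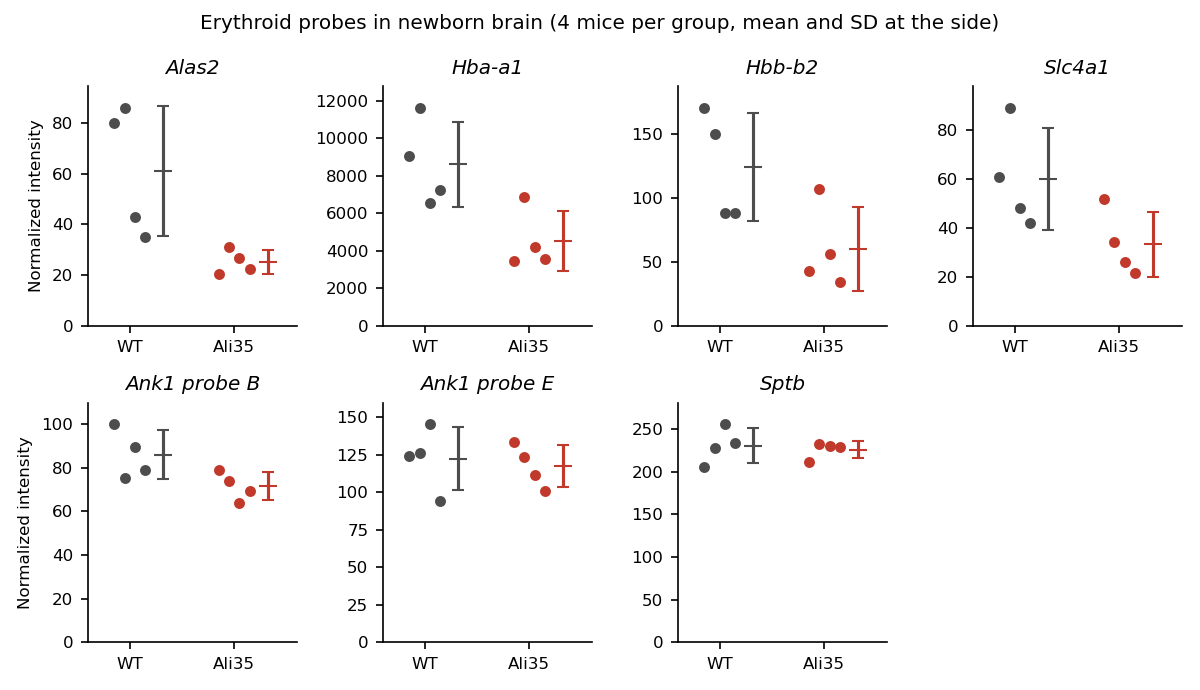
Normalized intensity (linear axis from 0) of the 7 tested erythroid probes on the 8 arrays of newborn brain, with the mean and SD beside the points (n = 4 mice per group). Alas2, Hba-a1, Hbb-b2 and Slc4a1 have lower Ali35 means, with 2 high wild-type arrays for Alas2 and Hbb-b2, and Sptb has nearly equal means of 231 and 226.

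The brain arrays differed among themselves in a shared way. With each gene's group mean removed, Hbb-b2 (r = 0.91), Hba-a1 (0.881) and Alas2 (0.875) followed the average of the 6 tested members over the 8 arrays, Slc4a1 (0.699) and Ank1 (0.509) less so, and Sptb not (-0.319). Each gene is part of that average, so the values are a description. In bone the average, there over 7 members with Klf1, varied less (SD 0.0825 against 0.276 on the log2 scale). Ank1 (0.813) followed it most, then Slc4a1 (0.564), Klf1 (0.511), Alas2 (0.362) and Sptb (0.277), while Hba-a1 (0.225) and Hbb-b2 (0.14) hardly did.

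**Figure D4:**
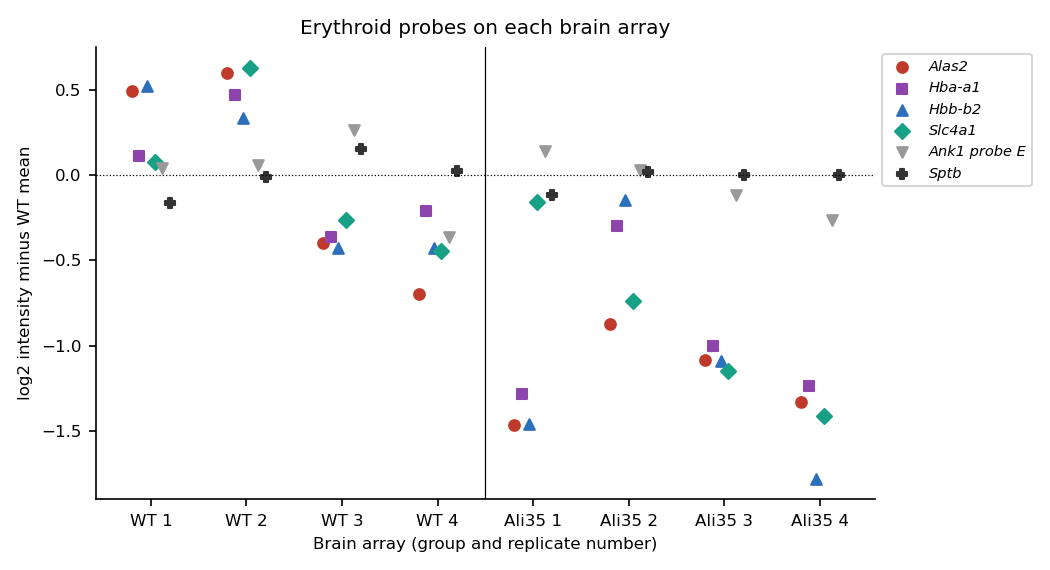
Log2 intensity of each erythroid gene on each brain array, less its mean over the wild-type arrays (points are genes, Ank1 by probe E). Alas2, Hba-a1 and Hbb-b2 lie above 0 on wild-type replicates 1 and 2 and below it on the other 6 arrays, least far for Hba-a1 and Hbb-b2 on Ali35 replicate 2 among the Ali35 arrays, while Sptb stays between -0.16 and 0.15.

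By the same measure the probes closest to the member average in bone were those of Lrch1 (r = 0.988), the protease gene Furin (0.985), the cytochrome b5 reductase gene Cyb5r3 (0.969), Mast2 (0.967) and Sec14l1 (0.963), among 11511 probes over 8 arrays. In brain they were the neuronal transcription factor gene Mef2c (0.989), 2410002F23Rik (0.968), Rufy2 (0.954), Bmerb1 (0.953) and Cd2bp2 (0.952), among 10283 probes. With 8 arrays and so many probes, high values are reached easily, and all points share arrays and normalization.

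Other blood cells and vessel-rich tissues were read beside the brain results. All 8 B lymphocyte genes and 8 of 12 neutrophil genes, including Elane, Mpo and Camp, were below 16 on every brain array. The summed neutrophil list ran from 53.0 to 92.4 in wild type and from 47.1 to 241 in Ali35, and S100a8, the neutrophil gene of lowest p, had 0.83 ± 0.47 and did not pass. The summed platelet list ran from 157 to 200 in wild type and from 146 to 173 in Ali35, with Ppbp, Treml1 and Gp9 below 16 on all arrays. Of these lists 0 genes were called in brain by limma, and 1 platelet gene had an unadjusted p under 0.05. Of 7 tested macrophage and microglia genes 0 were called, and 2 had an unadjusted p under 0.05 (limma). All 7 were below 0, with a median of -0.15, against 0.02 over all genes. Their summed list overlapped, at 598 to 658 in wild type and 542 to 619 in Ali35.

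Some other list sums did not overlap between genotypes in brain and are named for that, while the remaining sums overlapped. Among all single brain probes, 8.78% did not overlap with Ali35 higher and 6.88% with Ali35 lower. The erythroid transcription list was higher in Ali35, at 2984 to 3052 against 2739 to 2928 in wild type. Bcl11a (1042 ± 44.5 in wild type and 1150 ± 66.2 in Ali35) and Ldb1 (1025 ± 38.8 and 1096 ± 79.1) held most of it. Of its 14 genes, 7 were below 16 on all brain arrays, Gata1 and Gfi1b among them. The choroid plexus and meninges list was lower, at 5001 to 6425 in wild type and 4177 to 4553 in Ali35. Ttr held most of that sum (4937 ± 583 and 3827 ± 199), and 4 of its 6 tested genes were below 0. The endothelium list was also lower, at 1033 to 1092 and 959 to 1028, with Esam at 401 ± 31.2 and 342 ± 19.8. In each list, 0 genes were called by limma and 1 had an unadjusted p under 0.05. The part of vessels, choroid plexus and meninges, and of the amount of blood left in the tissue, in the erythroid result was not tested.

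In the 6 pathway lists 30 genes were tested in brain, 0 were higher and 1 lower, where 1.94% of all genes were higher and 1.49% lower. The gene was Trf, the iron carrier transferrin, which fell from 56.0 ± 4.67 to 40.4 ± 4.76 (-0.47 ± 0.11, adjusted p = 0.0457, limma). Its call was lost whichever array was left out (adjusted p from 0.0545 to 0.0998). Whether erythroid or other cells of the brain samples held the Trf RNA was not tested. The other tested genes included the transcription factor gene Tal1 (0.42 ± 0.14, adjusted p = 0.112) and the haem synthesis gene Uros (-0.29), neither of which passed. The membrane genes Rhag and Kel, the maturation genes Hemgn and Bpgm, and the regulators Gata1 and Gfi1b were below 16 on all brain arrays. The embryonic globin genes Hbb-bh1, Hba-x and Hbb-y were below it too.

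The difference between tissues, bone change less brain change, was tested over 9225 probes kept in both. All 7 member probes were called, each with the higher value in bone, where 24.4% of all probes were called, 12.9% in that direction and 11.6% in the other. Their median was 1.18, and that of all probes was -0.02. The test uses the same arrays as both comparisons, so it adds no independent evidence, and tissue, age and normalization cannot be told apart in it.

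The difference rested on different sides for different genes. For Ank1 probe B (1.54 ± 0.20, adjusted p = 8.4e-05), probe E (1.32 ± 0.23, adjusted p = 0.000998) and Sptb (1.00 ± 0.26, adjusted p = 0.0108) the larger part was the rise in bone. For Alas2 (1.18 ± 0.32, adjusted p = 0.0142), Hba-a1 (1.03 ± 0.27, adjusted p = 0.0115) and Hbb-b2 (1.18 ± 0.39, adjusted p = 0.0346) the bone change was near 0. Slc4a1 had 1.20 ± 0.34 (adjusted p = 0.0166), with values away from 0 in both tissues that were not called in either. With no filter on dim probes the calls for Alas2, Hba-a1, Hbb-b2 and Slc4a1 were lost (adjusted p of 0.0647, 0.0508, 0.135 and 0.0744). That run also took in probes below 16 on every array, which were constant once set to 16. The call for Hbb-b2 was lost without 10 of the 16 arrays in turn (adjusted p from 0.0515 to 0.0745).

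**Figure D5:**
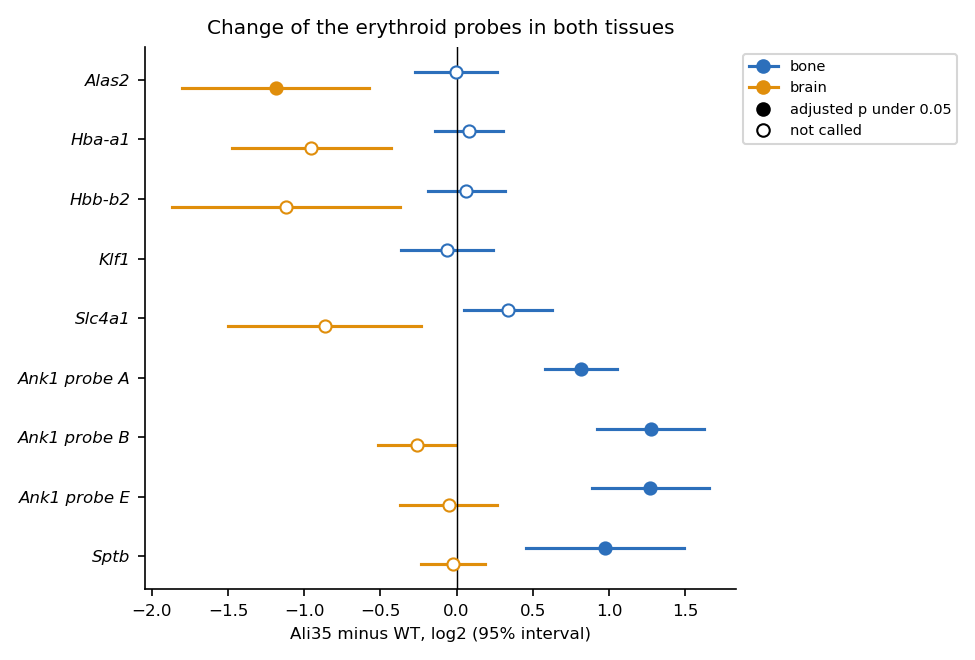
Log2 change of Ali35 minus wild type for each tested erythroid probe in bone and brain, with 95% intervals from limma. Filled points were called. In bone the intervals of the 3 Ank1 probes, Sptb and Slc4a1 lie above 0, and in brain those of Alas2, Hba-a1, Hbb-b2, Slc4a1 and Ank1 probe B lie below 0, before adjustment over all probes.

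Of the 30 pathway genes kept in both tissues, 5 had a called difference with the higher change in bone: Alas1 (0.56), Dmtn (0.51), Zfpm1 (1.51), Bcl11a (0.84) and Ube2o (0.55). Mgst3, a glutathione transferase gene, had the opposite difference (-0.43). Over all genes 13.6% and 11.8% were called in these directions. The calls of Ube2o and Mgst3 were lost without 7 and 14 of the 16 arrays in turn (adjusted p up to 0.0611 and 0.0957).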

How the data were processed

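Total RNA of bone and brain had been labelled with biotin and hybridized to Illumina one-colour arrays. The authors deposited normalized intensities on a linear scale. GenomeStudio 2011.1 is named in the submitters' processing notes. How the arrays were normalized is not given in the sources used here. Values below 0 showed background subtraction, and nearly equal quartiles showed normalization within each tissue. A non-normalized table was not used, since its 32 columns matched no label.

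Intensities were floored at 16 and log2-transformed, and each tissue was fitted with limma 3.58.1 in R 4.3.3 (lmFit and eBayes at defaults, two-sided), with an interaction term over all 16 arrays. Benjamini-Hochberg adjustment ran over all probes kept. The fits were tested on simulated data. The number of arrays limits the precision.

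Members and lists were chosen with earlier results of these data known. All member probes are named. Of each pathway list the called genes are named, and in a tissue without any, up to 2 of lowest p, with cell type lists by counts, sums and up to 2 genes. Genes named as below the floor were chosen after their values were seen. Each array was 1 mouse. Alternatives covered floor, filter, scaling, variance model, replicate block, probe averaging and leaving out each array. Figures were drawn with matplotlib 3.10.9 under Python 3.11.15.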

Additional observations from a re-analysis of the deposited data

Results flagged for a closer look

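Of 32 groups of 4 arrays examined among the tested erythroid probes, 3 held an array set apart from the other 3 by Dixon's criterion, which chance gives in about 1 in 20 groups. They were Hba-a1 at 38608 on Ali35 bone replicate 4, above the others, Ank1 probe A at 236 on wild-type bone replicate 3, above the others, and Sptb at 212 on Ali35 brain replicate 1, below the others.

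The change in bone differed from the change in brain by limma's interaction term for all 7 probes kept in both tissues. The log2 differences were 1.18 for Alas2, 1.03 for Hba-a1, 1.18 for Hbb-b2, 1.54 and 1.32 for Ank1 probes B and E, 1.00 for Sptb and 1.20 for Slc4a1. Tissue and age cannot be told apart in these values.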

How the results depend on the processing

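No called change of an erythroid gene was reversed by any alternative run, and the 3 Ank1 probes remained called in bone under every alternative that tested them singly. Averaged, they changed by 1.12 (adjusted p = 0.000698). In bone the 4 erythroid calls became 2 when the probes of a gene were averaged, since genes were then counted, and ran from 3 to 5 with single arrays left out. The 10 pathway calls in bone fell to 3 with no filter on dim probes and ran from 6 to 10 with single arrays left out, and the 3006 calls over all probes fell to 1430 and ran from 1639 (without wild-type replicate 4) to 2639. Sptb lost its call with no filter (adjusted p = 0.102), and Slc4a1 gained one with limma's trend and robust options (0.033).

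In brain the erythroid count of 1 was 0 with a floor of 8, with a floor of 32 and with no filter (limma, 5 of 7 unadjusted in the reported fit). It was 2 on log2(value + 16), with 16 required on all arrays and with quantile normalization, and ran from 0 to 2 with single arrays left out. The pathway count of 1 was 0 with floors of 8 and 32, with no filter, with trend and robust options and without any single array. All 398 brain calls became 248 with a floor of 8, 19 with no filter and 850 with trend and robust options, and ran from 43 to 240 with single arrays left out. Alas2 had adjusted p values of 0.0579 with a floor of 8, 0.191 with 32 and 0.314 with no filter.

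With no filter, 3 of the 7 differences between tissues stayed called (Ank1 probes B and E and Sptb). Those of Alas2, Hba-a1, Hbb-b2 and Slc4a1 were lost. Ank1 probe A also entered that run and brought its count to 4. This probe was below the floor on every brain array, so its brain values were constant once floored. Its difference of 0.82 was thus its bone change alone and could not test bone against brain. With the filter in place, the count of called differences ran from 6 to 7 with single arrays left out.

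Replicate numbers did not pair the arrays: same-numbered deviations correlated at -0.116 to 0.163 in bone and 0.0116 to 0.14 in brain, and 1 and 2 of 4 pairs matched best with their own number. With the replicate block the erythroid brain count was 2, with Hba-a1 gained (adjusted p = 0.0313), the brain pathway count 0 and all brain calls 206. The causes of these shifts were not tested. Signals near the floor limit Alas2 and Slc4a1 in brain.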
